A study of Mus musculus with 12 samples.

Results

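The genes of cholesterol and fatty acid synthesis were followed in the sciatic dorsal root ganglia (DRG) of mice, the ganglia that hold the cell bodies of the sensory neurons of the sciatic nerve. The set has 32 members, taken by name from the 44345 gene names of the count table: 31 stood there under the name used here and Msmo1 under its older name Sc4mol. All 32 passed the filter on low counts, which left 16238 genes for testing. By role, 4 members sense sterols or control the SREBP transcription factors, 18 are enzymes of sterol synthesis (7 from acetyl-CoA to farnesyl diphosphate, 3 that make squalene and lanosterol, 8 from lanosterol to cholesterol), 4 move or export sterol, and 6 make, elongate or desaturate fatty acids.

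Cells build cholesterol from acetyl-CoA by way of mevalonate, squalene and lanosterol. When sterol in the membrane of the endoplasmic reticulum is low, Scap escorts the SREBP proteins to the Golgi, where they are cut and released to switch on the enzymes of the pathway, and Insig1 holds them back when sterol is high. When sterol is high, the LXR nuclear receptors switch on export genes such as Abca1 and Abcg1. In peripheral nerve, lipid is made in large amounts by the myelinating Schwann cells, and neurons need membrane lipid for growing axons.

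C57BL/6 mice of 5 to 8 weeks of age spent 10 days in standard housing (SH, 4 mice to a cage) or in environmental enrichment (EE, larger cages of 8 mice with a running wheel, extra nesting material and objects that were changed). They then underwent sciatic nerve axotomy (SNA, the nerve cut through) or a sham operation, in which the nerve was exposed and left whole. The L4-L6 ganglia were taken 24 h later. The 4 groups, called SH Sham and EE Sham without axotomy and SH SNA and EE + SNA with it, have 3 samples each, and a sample is a pool of the DRG of 2 mice, so that single mice cannot be told apart.

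Between 11343579 and 22871460 reads were counted on genes per sample, with the highest number in EE + SNA sample 2. Atf3, a transcription factor that injured sensory neurons switch on, stood at 109.9, 138 and 109.9 CPM (read counts scaled by library size and composition with TMM) in SH Sham, 136, 136 and 168 in EE Sham, 549, 502 and 499 in SH SNA and 480.4, 454 and 516 in EE + SNA, with all 6 SNA samples above all 6 Sham samples. The 12 markers of sensory neurons summed to 16151 to 18785 CPM and the 12 of myelinating Schwann cells to 7229 to 13574 CPM, so that the markers of the labelled tissue were abundant in every sample. A few samples carried more RNA of other tissues: the 7 skeletal muscle markers summed to 919 CPM in SH SNA sample 2 and to 3.05 to 154 CPM elsewhere, and the 8 neutrophil markers to 732 CPM in EE + SNA sample 3 and to 71.2 to 311 CPM elsewhere. The 12 adipocyte markers summed to 188, 92.2 and 131 CPM in EE + SNA and to 32.4 to 115 CPM in the other samples. The study describes EE Sham as a dataset described before, and the labels name no batch. Where EE Sham is set against SH Sham, a batch and the housing cannot be told apart. In EE + SNA against EE Sham, a batch and the surgery cannot be told apart. The comparisons over both housings or both surgeries and the interaction also use EE Sham and carry this limit. In whole ganglia, fewer cells of a type and less RNA per cell cannot be told apart either.

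RefSeq promoters, 250 bases before to 50 bases after a transcription start in the mouse build GRCm38, were at hand for 25 of the 32 members (33 promoters) and for 15 of the 18 sterol synthesis enzymes. Stard4, Abcg1, Scd2, Fdft1, Fdps, Scd1 and Sqle had no entry. The promoters were searched on both strands for 4 motifs: the sterol regulatory element TCACNCCAC, where N is any base, to which SREBP binds, the CCAAT box of NF-Y and the GGGCGG box of Sp1, both factors that work beside SREBP, and the E-box CACGTG. Stretches of 8 promoters are shown, each ending before the annotated transcript, because they belong to members whose values the results below turn on and hold most of the motif arrangements found. Capitals mark the motifs on either strand, so that ATTGG stands for an NF-Y box, and CCGCCC for an Sp1 box, read on the other strand. Hmgcs1 (chr13:119690171-119690321, + strand) is shown as the only member promoter with a match to the sterol regulatory element. Mvd (chr8:122443423-122443522, − strand), Lss (chr10:76531495-76531585, + strand), Ebp (chrX:8193513-8193692, − strand) and Hsd17b7 (chr1:169969245-169969380, − strand) are enzymes of sterol synthesis. Insig1 (chr5:28071192-28071352, + strand) holds the SREBP proteins back when sterol is high, Fasn (chr11:120824548-120824647, − strand) makes fatty acid, and Abca1 (chr4:53159896-53160045, − strand) exports cholesterol.
Hmgcs1: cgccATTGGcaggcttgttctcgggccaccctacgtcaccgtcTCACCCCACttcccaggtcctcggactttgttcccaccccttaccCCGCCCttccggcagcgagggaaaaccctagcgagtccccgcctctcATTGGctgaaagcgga
Mvd: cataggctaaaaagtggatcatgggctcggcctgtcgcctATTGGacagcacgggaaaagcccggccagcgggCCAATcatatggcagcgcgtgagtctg
Lss: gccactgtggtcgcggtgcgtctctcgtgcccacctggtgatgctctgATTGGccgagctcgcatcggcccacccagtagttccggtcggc
Ebp: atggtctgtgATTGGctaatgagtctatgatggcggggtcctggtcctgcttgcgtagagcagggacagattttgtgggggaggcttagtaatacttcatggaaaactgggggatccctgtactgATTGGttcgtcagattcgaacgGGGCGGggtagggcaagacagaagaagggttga
Hsd17b7: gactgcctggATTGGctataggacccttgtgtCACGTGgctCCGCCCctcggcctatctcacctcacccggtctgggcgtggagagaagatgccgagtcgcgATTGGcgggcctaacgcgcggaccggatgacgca
Insig1: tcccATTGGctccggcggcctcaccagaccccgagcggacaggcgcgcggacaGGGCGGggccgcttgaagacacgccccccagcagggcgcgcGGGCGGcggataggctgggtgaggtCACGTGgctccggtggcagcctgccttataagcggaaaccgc
Fasn: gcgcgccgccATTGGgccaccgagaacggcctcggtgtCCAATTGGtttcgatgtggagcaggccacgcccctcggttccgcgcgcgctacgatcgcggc
Abca1: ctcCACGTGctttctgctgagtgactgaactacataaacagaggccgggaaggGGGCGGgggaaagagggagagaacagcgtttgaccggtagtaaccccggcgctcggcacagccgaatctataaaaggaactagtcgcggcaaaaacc

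The CCAAT box and the GGGCGG box were each found in most of these promoters. At least 1 CCAAT box was present in 19 of the 25 members with a promoter (76.0%) and in 14 of the 15 sterol synthesis enzymes (93.3%), all but Acat2, against 42.4% of the 11126 tested genes with a promoter and 37.4% of all 32851 promoters given. Hmgcs1 had a match at −176 and at −45 in the stretch shown, counted from the transcription start, Mvd at −60 and −27, Lss at −62, Ebp at −170 and −55, and Fasn had 3, of which those at −62 and −59 share bases. The Abca1 promoter had none. The GGGCGG box was in 20 members (80.0%) and 14 sterol synthesis enzymes (93.3%), against 66.3% of the tested genes and 35.7% of all promoters. The E-box was in 6 members, Insig1, Hsd17b7 and Abca1 among them, against 11.1% of the tested genes and 7.15% of all promoters. The sterol regulatory element was in 1 member, Hmgcs1 at −137, against 1.43% of the tested genes and 1.24% of all promoters. No 2 matches of different motifs shared bases among the 99 in member promoters. Matches are letters in a window, not measured binding, and a promoter with none can hold other versions of a site.

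**Figure D1:**
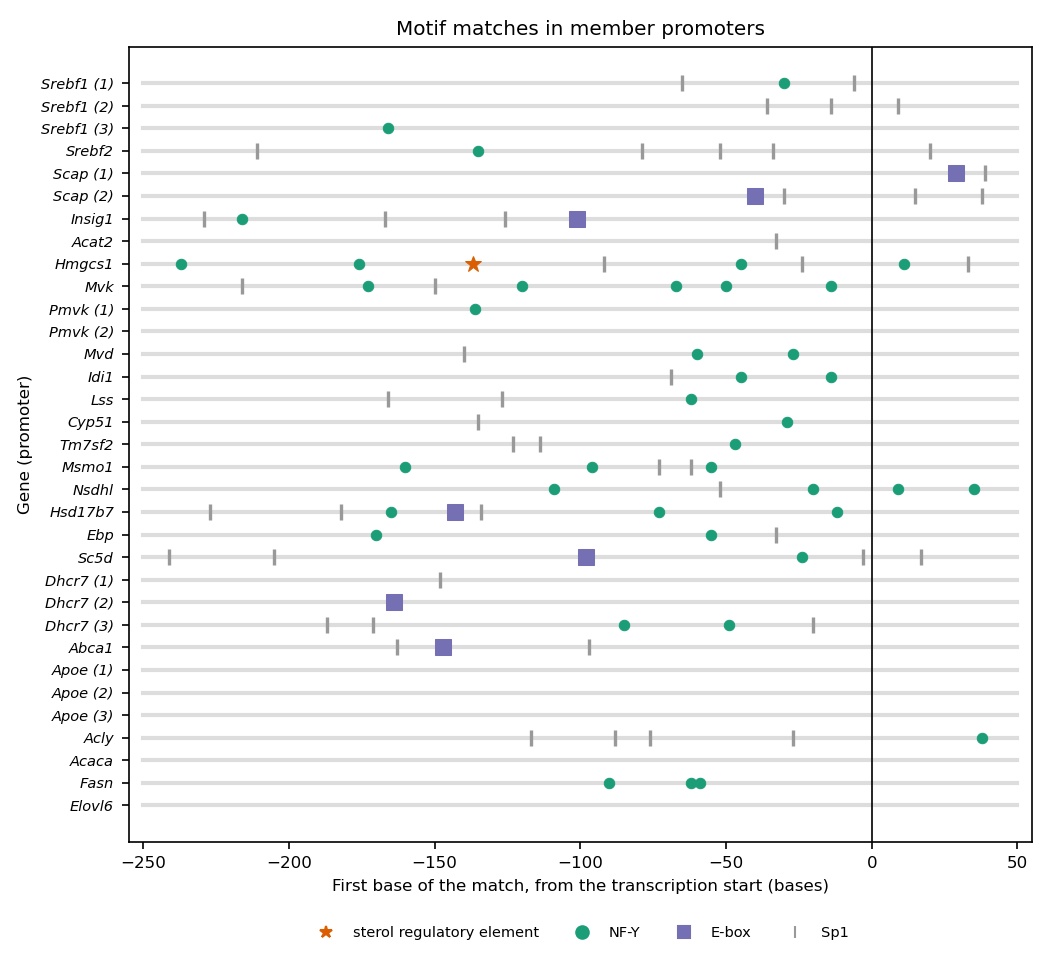
Motif matches in the 33 member promoters, 1 line per promoter, with the distance of the first base of each match from the transcription start in bases on the x axis and the motif given by the marker. CCAAT boxes (circles) lie in 19 of 25 members and the sterol regulatory element (star) in Hmgcs1 alone; the promoters of Apoe, Acaca and Elovl6 hold no match.

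Per length of transcript, the members differed far more from each other than any of them did between groups. On the authors' FPKM scale (fragments per kilobase of gene, scaled by library size), Apoe, the main carrier protein of lipid between glia and neurons, was the most abundant at a mean of 747 over the 12 samples, with a range of 614 to 833. Scd2 at 317 and Scd1 at 244, which desaturate fatty acids, Hmgcs1 at 254, which makes the precursor of mevalonate, and Fdps at 234, which makes farnesyl diphosphate, followed. The lowest were Abca1 at 9.71, Srebf1 at 8.48, Abcg1 at 7.50 and Lss at 4.77 FPKM. Lss has 10787 exonic bases over all its transcripts together. The gene lengths behind the authors' FPKM were not checked, so the order of the members by FPKM is uncertain. Scd2 varied least over the 12 samples, with a highest value 1.08 times its lowest, and Abca1 most, at 2.18 times.

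Some members share sequence with other genes, and how the counting treated strand is not given in the sources used here. Acat2 has 65.6% of its transcript in stretches at least 95% identical to Acat3, Acaca 64.3% in the pseudogene Gm5182, and Fdps 76.8% in the pseudogene Gm3571 beside 26.7% of its exonic bases inside Gm43738 on the same strand. The values of these 3 genes are therefore uncertain. Fdft1 shares 18.3% of its exonic bases with Ctsb on the opposite strand and 33.7% of its transcript with the pseudogene Gm6781, Tm7sf2 shares 12.1% with Vps51 on the same strand, and Hmgcs1 12.1%, Scap 13.2% and Idi1 9.22% with antisense or unnamed transcripts. Idi1 also has 22.6% of its transcript in the pseudogene Gm13502.

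**Figure D2:**
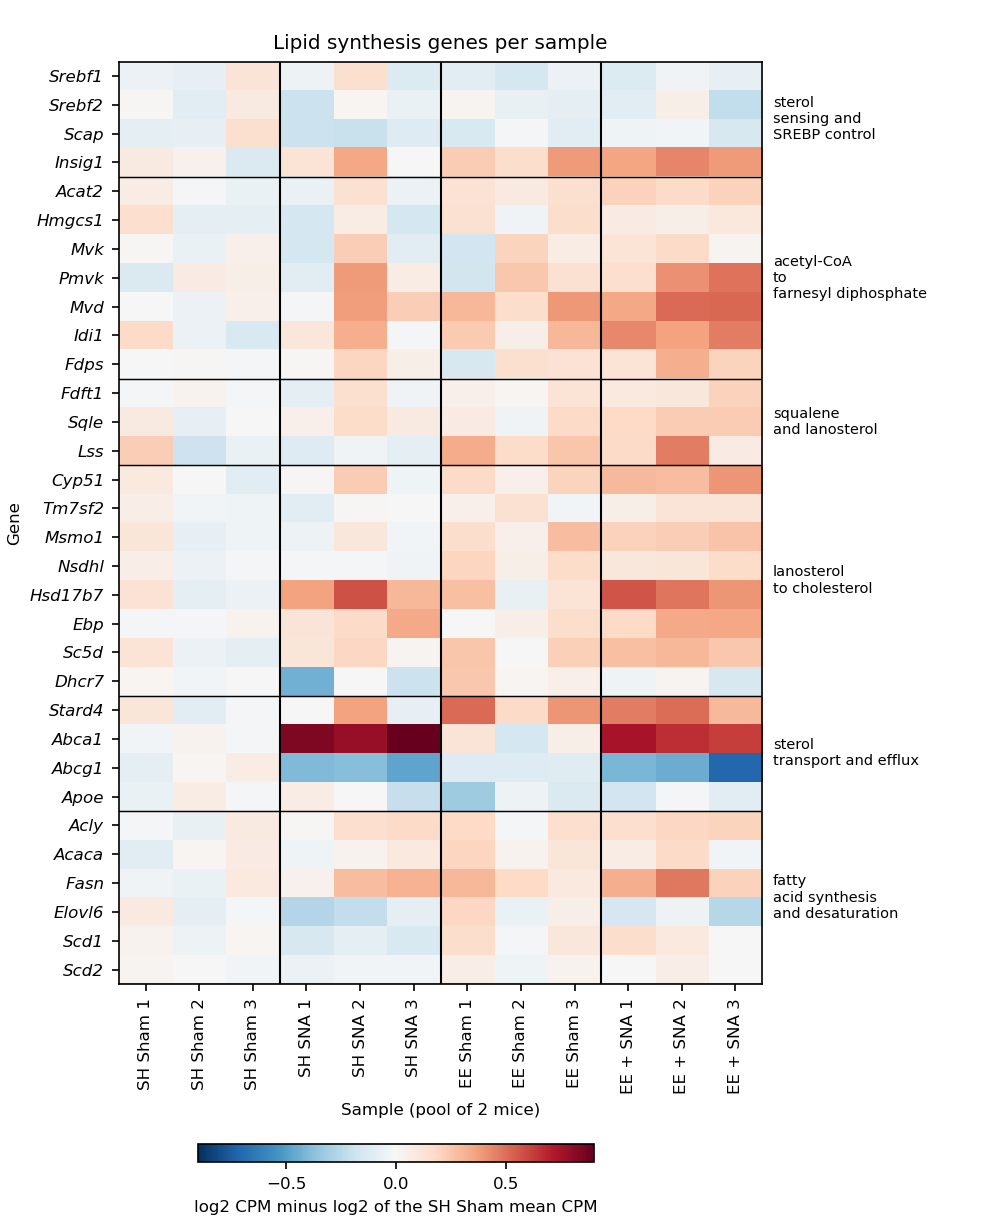
Level of each of the 32 genes (rows, by role) in each of the 12 samples (columns), as log2 CPM minus log2 of the SH Sham mean. EE + SNA samples are above the SH Sham mean for 17, 18 and 17 of the 18 sterol synthesis enzymes. EE Sham samples are above it for 14, 15 and 17, and the SH Sham samples themselves for 14, 4 and 5. Abca1 is dark red and Abcg1 blue in the 6 SNA samples, and SH SNA sample 2 is redder than the other SH SNA samples.

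The first question was whether EE changed these genes, with or without nerve injury. With EE set against SH over both surgeries, 6 samples against 6, all 18 sterol synthesis enzymes had a positive log2 fold change, with a median of 0.13 and a highest value of 0.29 for Lss. Differences are given here as log2 fold changes ± SE, and levels as CPM. The SE is the absolute log2 fold change divided by the square root of the F statistic of edgeR's quasi-likelihood test. The median over all 32 members was 0.09 with 27 positive, where all 16238 genes had a median of 0.00163. No member passed the adjusted threshold of 0.05 in edgeR's quasi-likelihood test, where 0% of all genes did. The smallest adjusted P-value of a member was 0.542. At the study's unadjusted threshold of 0.05, 16 members were higher and 0 lower. Of all genes, 4.69% passed it and 2.56% passed it as higher. The likelihood ratio test and DESeq2 each called 1 member after adjustment, Stard4, and edgeR without the filter on low counts called 7. The 5 members with a negative value were Srebf1, Srebf2, Abca1, Abcg1 and Apoe, none past the unadjusted threshold.

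**Figure D3:**
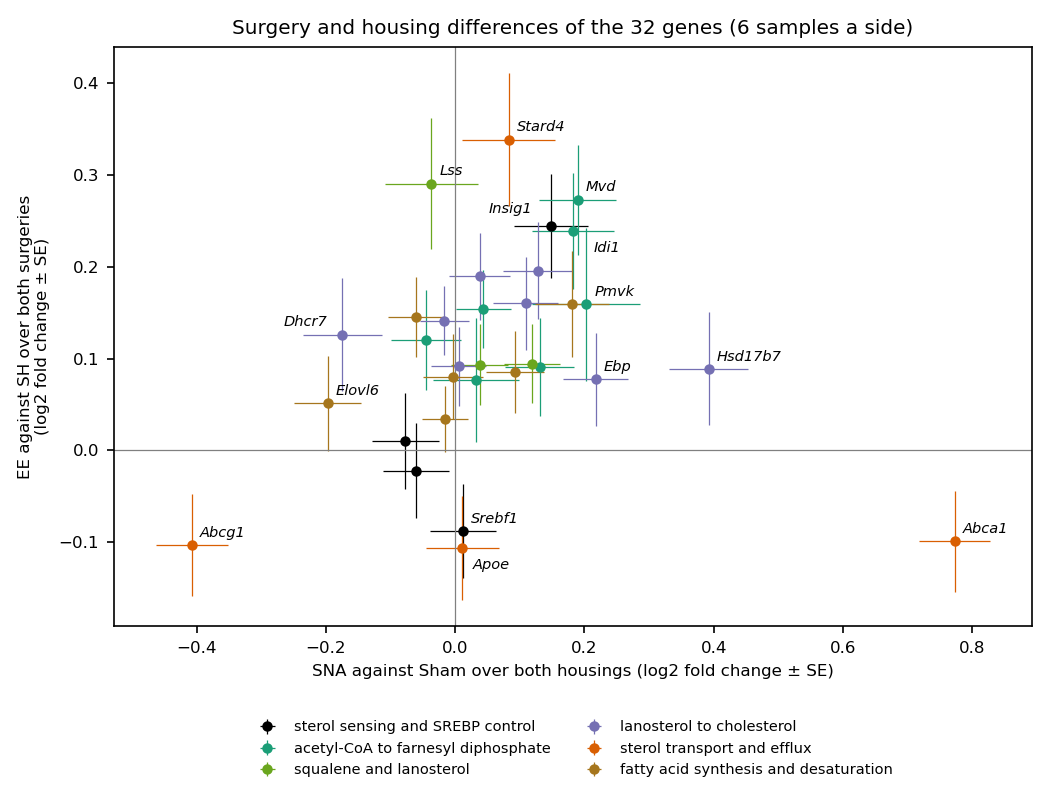
Log2 fold change of each member for SNA against Sham (x axis) and for EE against SH (y axis), each over 6 samples a side, with bars of ± 1 SE and colours by role. The 18 sterol synthesis enzymes lie above 0 on the y axis with Stard4 and Lss at the top, and Abca1 and Abcg1 lie at opposite ends of the x axis.

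Among the genes of sterol sensing, Insig1 stood apart from the transcription factors that it restrains. Insig1 was at 144, 139 and 124 CPM in SH Sham, 159, 152 and 177 in EE Sham, 148, 172 and 136 in SH SNA and 174, 184 and 177 in EE + SNA. All EE samples lay above all SH samples of the same surgery. The log2 fold change with EE was 0.24 ± 0.06 (SE), at an unadjusted P-value of 4.8e-04 and an adjusted one of 0.63 in edgeR's quasi-likelihood test. Srebf2, which encodes the SREBP of the sterol genes, was at 181, 168 and 190.3 CPM in SH Sham and 168, 186 and 155 in EE + SNA, and its groups overlapped in every comparison. Its log2 fold change with EE was −0.02 ± 0.05, that of Srebf1, the SREBP of the fatty acid genes, −0.09 ± 0.05, and that of Scap 0.01 ± 0.05. The SREBP proteins are regulated by cleavage, which RNA does not measure.

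In the first steps, 4 of 7 enzymes were higher with EE at the unadjusted threshold: Mvd, Idi1, Acat2 and Hmgcs1. Mvd decarboxylates mevalonate diphosphate. It was at 47.3, 45.5 and 48.6 CPM in SH Sham, 58.1, 52.6 and 61.8 in EE Sham, 46.8, 61.3 and 54.9 in SH SNA and 60.1, 67.0 and 67.5 in EE + SNA. EE Sham lay above SH Sham in every sample, whereas SH SNA sample 2 reached into the range of EE + SNA. The difference with EE was 0.27 ± 0.06 (log2, adjusted P-value 0.542). Idi1 makes the allylic building block of the pathway. It was at 344, 295 and 279 CPM in SH Sham, 360.4, 317 and 377 in EE Sham, 329, 383 and 302 in SH SNA and 414, 394 and 421 in EE + SNA. The EE + SNA samples were the 3 highest of the 12, while EE Sham and SH Sham overlapped. Its difference was 0.24 ± 0.06. Acat2, which joins 2 acetyl-CoA, was at 194, 183 and 177 CPM in SH Sham, 202, 195 and 205 in EE Sham, 177, 203 and 178 in SH SNA and 213, 209 and 214 in EE + SNA, with no overlap between housings within either surgery. The difference was 0.15 ± 0.04. Insig1 and Acat2 were the 2 members that lay wholly higher with EE within each surgery, as 0.265% of all genes did. Hmgcs1, which condenses acetyl groups into the precursor of mevalonate, was at 905, 769 and 765 CPM in SH Sham, 892, 794 and 907 in EE Sham, 730.3, 852 and 731 in SH SNA and 855, 845 and 870.0 in EE + SNA. SH Sham sample 1 was nearly the highest of the 12, and the groups overlapped. Hmgcs1 differed by 0.12 ± 0.05, and Mvk at 0.08 ± 0.07, Pmvk at 0.16 ± 0.08 and Fdps at 0.09 ± 0.05 did not pass. The call of Hmgcs1 was lost in 12 of 21 alternative analyses.

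All 3 enzymes that make squalene and lanosterol were higher at the unadjusted threshold. Lss closes squalene epoxide into lanosterol, the first sterol of the pathway. It was at 55.7, 42.0 and 45.9 CPM in SH Sham, 60.5, 53.8 and 56.9 in EE Sham, 44.1, 46.9 and 45.2 in SH SNA and 54.0, 66.0 and 50.3 in EE + SNA. The SH SNA samples were close together and lay below every EE + SNA sample, and SH Sham sample 1 lay inside the EE Sham range. The difference with EE was 0.29 ± 0.07 (adjusted P-value 0.65). Sqle, the oxygen-using step before it, was at 283, 254 and 267 CPM in SH Sham, 282, 262 and 303 in EE Sham, 277, 300.0 and 284 in SH SNA and 304, 314 and 314 in EE + SNA. Its EE + SNA samples lay above all others, and its difference with EE was 0.09 ± 0.04. Fdft1, squalene synthase, was at 322, 334 and 322 CPM in SH Sham, 337, 331 and 356 in EE Sham, 306, 360.1 and 319 in SH SNA and 346, 350.1 and 376 in EE + SNA, and differed by 0.09 ± 0.04. The call of Sqle was lost in 13 of 21 alternative analyses and that of Fdft1 in 14.

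Of the 8 enzymes from lanosterol to cholesterol, 5 were higher at the unadjusted threshold: Cyp51, Msmo1, Sc5d, Nsdhl and Tm7sf2. Cyp51, which removes the first methyl group of lanosterol, was at 161, 152 and 141 CPM in SH Sham, 171, 156 and 174 in EE Sham, 152, 178 and 147 in SH SNA and 185, 183 and 199 in EE + SNA. The EE + SNA samples were again the 3 highest of the 12. Its difference with EE was 0.20 ± 0.05. Msmo1, which oxidises the next methyl groups, was at 265, 233 and 239 CPM in SH Sham, 274, 253 and 297 in EE Sham, 238, 263 and 241 in SH SNA and 283, 287 and 293 in EE + SNA, and differed by 0.19 ± 0.05. Its EE + SNA values lay within a narrow band above every SH sample. Sc5d, a desaturase near the end of the pathway, was at 175, 155 and 151 CPM in SH Sham, 190.5, 159.7 and 186 in EE Sham, 173, 182 and 163 in SH SNA and 193, 197 and 189.6 in EE + SNA, and differed by 0.16 ± 0.05. Nsdhl, a sterol dehydrogenase, was at 103, 95.5 and 98.5 CPM in SH Sham, 113, 103 and 111 in EE Sham, 97.8, 98.0 and 96.9 in SH SNA and 106, 107 and 111 in EE + SNA, and differed by 0.14 ± 0.04. For both, EE + SNA lay wholly above SH SNA while EE Sham overlapped SH Sham. Tm7sf2, a sterol reductase, differed by 0.09 ± 0.04, and its call was lost in 17 of 21 alternative analyses. Dhcr7 at 0.13 ± 0.06, which carries out the last reduction, Hsd17b7 at 0.09 ± 0.06 and Ebp at 0.08 ± 0.05 did not pass.

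In sterol transport, Stard4 had the largest difference with EE of all 32 members. Stard4 encodes a soluble protein that carries sterol between membranes. It was at 142, 123 and 131 CPM in SH Sham, 188, 148 and 174 in EE Sham, 132, 169 and 125 in SH SNA and 181, 187 and 161 in EE + SNA. Each EE Sham sample lay above each SH Sham sample, and SH SNA sample 2 lay among the EE + SNA samples. The log2 fold change was 0.34 ± 0.07, at an unadjusted P-value of 2.1e-04 and an adjusted one of 0.542. The export genes had values below 0: Abca1 differed by −0.10 ± 0.05, Abcg1 by −0.10 ± 0.06 and Apoe by −0.11 ± 0.06, none past the unadjusted threshold. Apoe was at 1503, 1640.0 and 1554 CPM in SH Sham, 1252, 1516 and 1434 in EE Sham, 1639, 1560.1 and 1359 in SH SNA and 1389, 1549 and 1458 in EE + SNA, with overlap between all groups and its lowest value in EE Sham sample 1.

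Of the fatty acid genes, Fasn and Scd1 were higher with EE at the unadjusted threshold. Fasn, fatty acid synthase, was at 244, 239 and 265 CPM in SH Sham, 307, 283 and 265 in EE Sham, 257, 302 and 309 in SH SNA and 312, 347 and 287 in EE + SNA. EE Sham lay above SH Sham by a narrow margin, and EE + SNA overlapped SH SNA. The difference was 0.16 ± 0.06. Scd1, which makes monounsaturated fatty acid, was at 1200.2, 1140.4 and 1188 CPM in SH Sham, 1314, 1165 and 1261 in EE Sham, 1064, 1110.5 and 1068 in SH SNA and 1313, 1248 and 1181 in EE + SNA, and differed by 0.15 ± 0.04. Acly, which supplies cytosolic acetyl-CoA, at 0.09 ± 0.04, Acaca, which makes malonyl-CoA, at 0.08 ± 0.05, Elovl6 at 0.05 ± 0.05 and Scd2 at 0.03 ± 0.04 did not pass. Scd2, the main desaturase of brain and nerve, held to a narrow range of 1774, 1738 and 1712 CPM in SH Sham, 1814, 1696 and 1777 in EE Sham, 1679, 1716 and 1713 in SH SNA and 1737, 1814 and 1739 in EE + SNA.

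**Figure D4:**
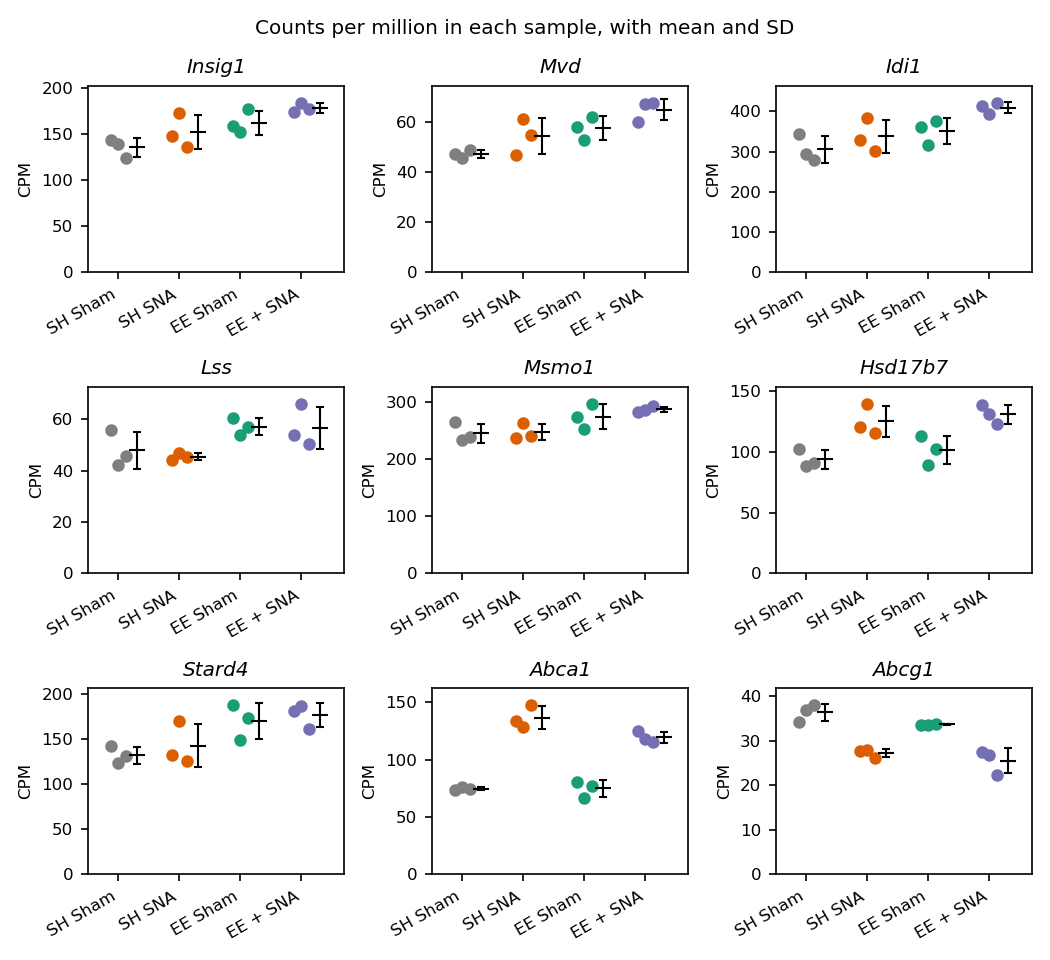
CPM of 9 members in each sample, with the mean ± SD of the 3 samples of a group beside them. Insig1 separates the housings within each surgery, Idi1 is highest in EE + SNA, and Abca1 and Abcg1 separate SNA from Sham in opposite directions.

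EE was also compared with SH within each surgery, where the 2 comparisons share no samples. In EE Sham against SH Sham, 6 members were higher at the unadjusted threshold and 0 lower, where 2.97% of all genes passed it and 1.4% passed it as higher. They were Stard4 at 0.36 ± 0.09, Mvd at 0.28 ± 0.08, Insig1 at 0.26 ± 0.08, Lss at 0.25 ± 0.09, Idi1 at 0.20 ± 0.09 and Fasn at 0.19 ± 0.07 on the log2 scale. None passed after adjustment in edgeR, where 0.00616% of all genes did, nor with the likelihood ratio test, DESeq2 or limma. Insig1, Acat2, Mvd, Stard4 and Fasn, 5 members, lay wholly above SH Sham, as 3.29% of all genes did. Abcg1 alone lay wholly below, as 4.32% of all genes did. Same-numbered samples of these 2 groups were positively correlated, although a pair of different numbers reached 0.194. The replicate number as a block gave 11 members past the unadjusted threshold, 10 higher and 1 lower (Apoe), where 5.22% of all genes passed. Stard4 then passed after adjustment in edgeR at 0.0021, where 0.179% of all genes did. The unblocked number at the unadjusted threshold is sensitive to single samples, and the share of all genes moved too. It was 3 without SH Sham sample 2 (all genes, 2.48%) and 4 without SH Sham sample 3 (2.83%). It was 11 without SH Sham sample 1 (3.53%) and 13 without EE Sham sample 2 (5.25%).

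In EE + SNA against SH SNA, 12 members were higher at the unadjusted threshold and 1, Abca1, was lower. Of all genes, 4.1% passed it and 2.16% passed it as higher. Lss at 0.33 ± 0.09, Stard4 at 0.31 ± 0.10, Idi1 at 0.28 ± 0.08 and Mvd at 0.26 ± 0.09 had the largest values, followed by Cyp51 at 0.25, Insig1 at 0.23, Msmo1 at 0.22 and Scd1 at 0.21. Acat2, Sc5d, Nsdhl and Hmgcs1 were the other 4. After adjustment no member was called, where 0% of all genes were, and the smallest adjusted P-value of any gene was 0.989. DESeq2, the likelihood ratio test and limma also called 0 members. Without overlap, 12 members lay higher, as 5.28% of all genes did, and 1, Abca1, lay lower, as 5.09% did. SH SNA sample 2 was closest to EE + SNA: 16 of its sterol synthesis enzymes were above the SH Sham mean, against 7 in each of the other SH SNA samples. Without it 18 members passed the unadjusted threshold (all genes, 4.04%), and without SH SNA sample 3 the number was 8 (all genes, 4.11%).

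As a description, the CPM of the 18 sterol synthesis enzymes were also summed per sample. The sum was 3534, 3226 and 3206 CPM in SH Sham, 3239, 3722 and 3265 in SH SNA, 3610, 3402 and 3757 in EE Sham, and 3773, 3846 and 3887 in EE + SNA. EE + SNA was above every sample of the other 3 groups, while EE Sham overlapped SH Sham and SH SNA. Adipocyte markers moved with EE as well. All 10 that could be tested had a positive log2 fold change with EE over both surgeries, with a median of 0.70. Of them 5 passed the unadjusted threshold (all genes, 4.69%) and none passed after adjustment. The values of these 10 ran from 0.15 to 2.11. In EE Sham against SH Sham 7 were positive, with a median of 0.26, and 1 passed the unadjusted threshold (all genes, 2.97%). In EE + SNA against SH SNA all 10 were positive, with a median of 0.99, and 7 passed it (all genes, 4.1%). The adipocyte hormones Adipoq and Lep are named for their values, both low beside the summed list. Adipoq was at 2.52 to 7.48 CPM in EE + SNA and at 0.716 to 3.57 CPM in the other 3 groups. Lep was at 0 in 7 of the 12 samples and at most 0.322 CPM. The part of these cells in the differences with EE was not tested. SH SNA sample 2 and EE + SNA samples 1 and 3 had the highest muscle, adipocyte or neutrophil sums. With them left out, only EE + SNA sample 2 remains of its group. The log2 fold change with EE was then 0.42 for Stard4, 0.35 for Lss, 0.32 for Mvd, 0.29 for Insig1 and 0.22 for Fasn. SH SNA sample 2 also had the highest sterol sum of its group, so leaving it out lowers the SH level. The choice was made after seeing the data. Of the 12 myelinating Schwann cell markers, 0 passed the unadjusted threshold with EE.

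**Figure D5:**
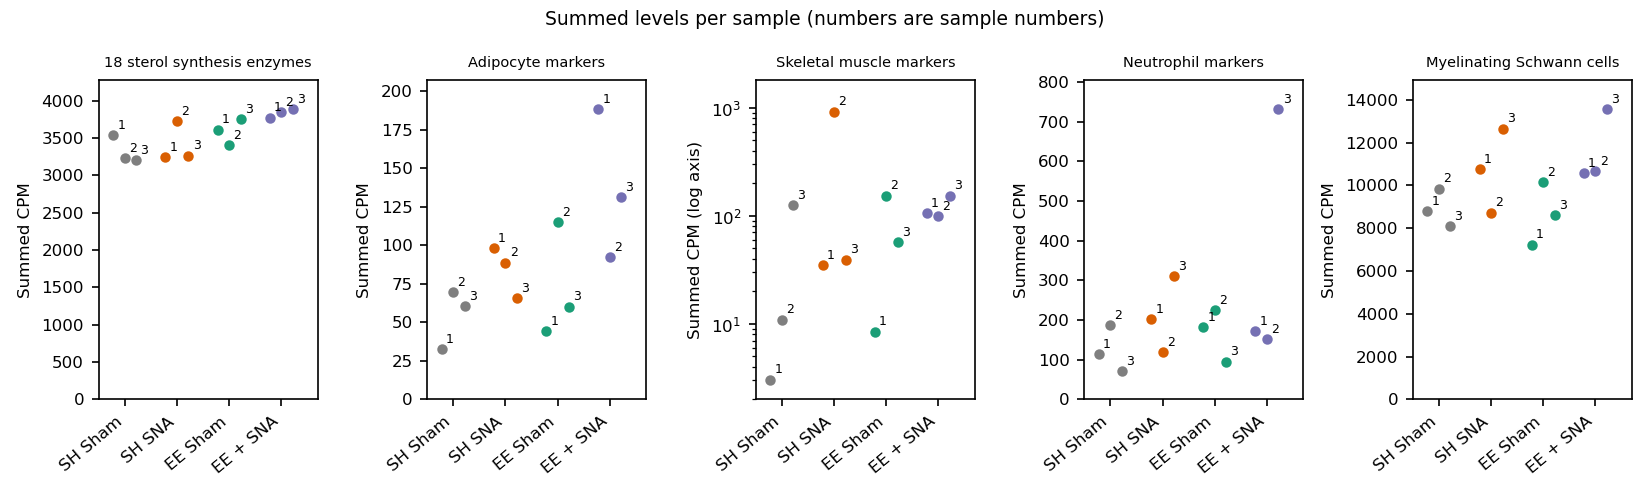
Summed CPM of the 18 sterol synthesis enzymes and of the markers of 4 cell types in each sample, numbered as replicates within groups. The muscle panel has a log axis. The EE + SNA samples have the 3 highest sterol sums, at 3773 to 3887 CPM, while single samples stand out for muscle (SH SNA sample 2) and neutrophil (EE + SNA sample 3) markers.

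The second question was what SNA did to these genes. Over both housings, 6 samples against 6, 6 members rose and 3 fell at an adjusted P-value below 0.05 in edgeR's quasi-likelihood test, 9 of 32 (all genes, 22.4%). At the unadjusted threshold 12 were higher and 3 lower (all genes, 34.7%). The median over the members was 0.04 with 21 positive, against 0.00708 over all genes. The sterol exporters moved most, and in opposite directions.

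Abca1 hands cholesterol to apolipoproteins outside the cell. It was at 73.5, 76.4 and 74.1 CPM in SH Sham, 80.9, 66.8 and 77.3 in EE Sham, 133, 128 and 148 in SH SNA and 125, 118 and 115 in EE + SNA. All 6 SNA samples lay above all 6 Sham samples. The log2 fold change over both housings was 0.77 ± 0.05 at an adjusted P-value of 2.4e-08, the largest change with SNA of the 32 members. The gene lies at chr4:53030787-53159895 on the − strand of GRCm38. Abcg1, which exports cholesterol to high-density lipoprotein, was at 34.2, 36.9 and 38.0 CPM in SH Sham, 33.6, 33.6 and 33.8 in EE Sham, 27.7, 27.9 and 26.2 in SH SNA and 27.4, 26.7 and 22.2 in EE + SNA. All 6 SNA samples lay below all 6 Sham samples. It fell by 0.41 on the log2 scale, with an SE of 0.06 and an adjusted P-value of 4.0e-05. Both are known targets of LXR. Stard4 at 0.08 ± 0.07 and Apoe at 0.01 ± 0.06 were not called.

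In sterol synthesis, 4 of the 18 enzymes rose with SNA over both housings and 1 fell after adjustment. That is near the share of all genes called (22.4%). Hsd17b7, a sterol ketone reductase of the later steps, was at 103, 88.2 and 90.6 CPM in SH Sham, 113, 89.4 and 102 in EE Sham, 121, 139.6 and 115 in SH SNA and 139, 131 and 123 in EE + SNA. The lowest SNA sample lay just above the highest Sham sample. It rose by 0.39 ± 0.06 (adjusted P-value 1.6e-04). Ebp, a sterol isomerase, was at 34.8, 34.9 and 36.2 CPM in SH Sham, 35.4, 36.6 and 39.5 in EE Sham, 38.3, 39.9 and 44.6 in SH SNA and 40.0, 44.6 and 45.0 in EE + SNA, and rose by 0.22 ± 0.05 (adjusted P-value 0.0049), with no overlap within either housing. Mvd at 0.19 ± 0.06 and Idi1 at 0.18 ± 0.06 also rose, with overlap between groups. Dhcr7 was at 87.8, 85.1 and 86.8 CPM in SH Sham, 102, 87.7 and 89.4 in EE Sham, 64.1, 86.8 and 75.8 in SH SNA and 84.3, 88.1 and 78.3 in EE + SNA. It fell by 0.18 on the log2 scale, and SH SNA sample 1 was the lowest of the 12. Of the fatty acid genes, Fasn rose by 0.18 ± 0.06 and Elovl6, which lengthens palmitate to stearate, fell by 0.20 on the log2 scale (adjusted P-value 0.01). Elovl6 was at 145, 129.6 and 136 CPM in SH Sham, 156, 131 and 142 in EE Sham, 114, 117 and 129 in SH SNA and 123, 133 and 115 in EE + SNA.

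Abca1, Abcg1, Hsd17b7 and Ebp passed the adjusted threshold in all 21 alternative analyses of this comparison and Elovl6 in 20, whereas Fasn was lost in 8, Mvd in 10, Dhcr7 in 10 and Idi1 in 12. Leaving out SH Sham sample 2 reduced the 9 calls to 5. Without SH SNA sample 2 and EE + SNA samples 1 and 3, only EE + SNA sample 2 remains of its group. The log2 fold change with SNA was then 0.82 for Abca1, −0.39 for Abcg1, 0.35 for Hsd17b7, 0.25 for Ebp and 0.22 for Fasn. Cell type markers moved with SNA too. Of the myelinating Schwann cell markers 9 of 12 rose and of the macrophage markers 6 of 10, and of the sensory neuron markers 7 of 12 fell. The macrophage markers summed to 66.9 to 80.2 CPM in the 6 Sham samples and to 85.0 to 119 CPM in the 6 SNA samples. The part of these cells in the changes of Abca1, Abcg1 and the synthesis enzymes was not tested.

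Within SH, 3 members passed the adjusted threshold for SNA against Sham, 2 higher and 1 lower (all genes, 11.2%). These were Abca1 at 0.87 ± 0.06, Hsd17b7 at 0.42 ± 0.08 and Abcg1 at −0.41 ± 0.08, and without SH SNA sample 1 the number was 5. At the unadjusted threshold 5 were higher and 4 lower (all genes, 25.2%). Within EE, 3 members passed after adjustment (all genes, 4.83%): Abca1 at 0.67 ± 0.08, Hsd17b7 at 0.36 ± 0.09 and Abcg1 at −0.41 ± 0.09. That number was 1 without EE Sham sample 3 and 2 when any other of the 6 samples was left out. At the unadjusted threshold 7 were higher and 2 lower (all genes, 20.6%).

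Whether SNA acted differently in the 2 housings was tested as the interaction of housing and surgery over all 12 samples. No member passed, adjusted (all genes, 0%) or unadjusted (all genes, 2.61%), in edgeR's quasi-likelihood test, and none did after adjustment in any of the 21 alternatives. Abca1 had the largest value, −0.20 ± 0.10 at an unadjusted P-value of 0.071, which stands for a smaller rise with SNA in EE than in SH. Its 95% interval ran from −0.42 to 0.02. It passed the unadjusted threshold in 3 of the 21 alternatives, at −0.28 without EE Sham sample 2, −0.25 without SH SNA sample 2 and −0.24 without EE + SNA sample 1.

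EE + SNA against SH Sham joins both differences, and here most sterol synthesis enzymes were called. After adjustment 15 members rose and 1 fell, 16 of 32, where 12.5% of all genes were called and 6.87% were called as higher. At the unadjusted threshold 18 were higher and 1 lower (all genes, 27.2%). Without overlap 18 members lay higher (all genes, 16.1%) and 1, Abcg1, lay lower (all genes, 15.7%). This comparison shares its controls with those above. Of the 18 sterol synthesis enzymes 11 rose, and the median over the 18 was 0.22.

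The largest rises in synthesis were Hsd17b7 at 0.48 ± 0.07, Mvd at 0.46 ± 0.07, Idi1 at 0.42 ± 0.08, Pmvk at 0.36 ± 0.09 and Cyp51 at 0.32 ± 0.07. In percent, Mvd was higher by 37.7% and Idi1 by 33.6%. Pmvk, which phosphorylates mevalonate phosphate, was at 71.4, 82.0 and 80.8 CPM in SH Sham, 69.7, 92.3 and 85.7 in EE Sham, 72.6, 102 and 81.8 in SH SNA and 86.9, 104 and 109 in EE + SNA, with SH SNA sample 2 at the level of EE + SNA. Ebp at 0.29, Sc5d at 0.27, Msmo1 at 0.23, Fdps at 0.22, Sqle at 0.21 and Acat2 at 0.19 rose as well. Outside synthesis, Abca1 rose by 0.68 ± 0.06, Stard4 by 0.42 ± 0.07, Insig1 by 0.39 ± 0.07 and Fasn by 0.34 ± 0.07. Abcg1 fell by 0.51 on the log2 scale. Insig1, Mvd, Idi1, Cyp51, Hsd17b7, Stard4, Abca1 and Abcg1 were called in all 15 alternatives. The calls nearest the threshold were less stable: Acat2 and Fdps were lost in 10, Msmo1 and Sqle in 8, Pmvk in 4, Sc5d in 3, and Ebp and Fasn in 2. Without SH Sham sample 2 there were 10 calls. Of the adipocyte markers 7 of 10 rose in this comparison, of the myelinating Schwann cell markers 6 of 12, of the macrophage markers 2 of 10, of the fibroblast markers 2 of 6, of the satellite glia markers 1 of 9, of the neutrophil markers 1 of 8 and of the endothelial markers 1 of 7, and 4 of the 12 sensory neuron markers fell. Their part in it was not tested.

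Genes of the same pathways outside the 32 were read from lists, whose counts for SNA over both housings stand against 22.4% of all genes called after adjustment. Among 8 other genes of sterol synthesis, Acat1, the mitochondrial acetoacetyl-CoA thiolase, fell with SNA over both housings (−0.21 ± 0.04, adjusted P-value 6.2e-04) and none rose. With EE over both surgeries all 8 had a positive log2 fold change, with a median of 0.06, and 1 passed the unadjusted threshold.

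Among 14 other genes that control SREBP or LXR, 2 rose with SNA and none fell. Nfyb, a subunit of NF-Y, rose by 0.34 ± 0.05. Nfyb was at 28.1, 27.5 and 25.8 CPM in SH Sham, 28.0, 27.2 and 28.8 in EE Sham, 33.3, 35.7 and 34.6 in SH SNA and 37.1, 33.6 and 35.7 in EE + SNA. With EE, 1 gene of this list, Nfya, was lower at the unadjusted threshold (−0.17 ± 0.07), and it is named for that value. Among 24 genes of sterol uptake, storage, efflux and oxidation, 5 rose and 4 fell with SNA, 9 in all. Ch25h, which makes an oxysterol, rose by 0.54 ± 0.18, Apod by 0.49 ± 0.08, Gramd1a by 0.25 ± 0.04 and Lrp1, a lipoprotein receptor, by 0.22 ± 0.07, and Abcg4 fell (−0.25 ± 0.05). Of the other fatty acid genes, 7 of 32 rose and 3 fell, 10 in all. Fads3 rose by 0.50 ± 0.04, Dgat1, which makes triglyceride, by 0.41 ± 0.08, Fa2h, which makes hydroxylated fatty acid for myelin, by 0.41 ± 0.11 and Elovl1 by 0.33 ± 0.07, and Thrsp fell (−0.40 ± 0.09). With EE over both surgeries none on these 4 lists passed after adjustment in edgeR. At the unadjusted threshold 1 gene of the list of 24 was lower, Abcg4 at −0.11 ± 0.05, and 4 of the fatty acid genes were higher: Acsl3 at 0.24 ± 0.07, Thrsp at 0.22 ± 0.09, Acss2 at 0.18 ± 0.05 and Acsl4 at 0.16 ± 0.06. Acsl3 and Acsl4 activate long fatty acids and Acss2 activates acetate, and these 4 are named for their values.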

How the data were processed

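RNA of sciatic DRG from 12 samples (4 groups of 3, each a pool of 2 mice) was sequenced after TruSeq mRNA library preparation. Per the submitters' processing notes, the authors aligned the reads to mm10 with TopHat2 2.0.12 and Bowtie2 2.2.3 and counted them with HTSeq 0.6.0. The deposited count table holds whole, unnormalized read counts for 44345 gene names, and the deposited FPKM table holds FPKM by the authors, which were used for levels between genes and as an alternative.

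Counts were filtered with filterByExpr (10 counts, total of 15), scaled by TMM (factors 0.978 to 1.02) and tested with edgeR 4.0.16 in R 4.3.3 (glmQLFit and the two-sided quasi-likelihood test), pairwise on 6 samples, or on 12 with housing or surgery as covariate. Reads outside genes (46.7% to 47.6%) and not uniquely aligned (8.49% to 9.28%) were left out. P-values were adjusted by Benjamini-Hochberg over 16238 genes. The fit was tested on simulated data. Values cover the spread between pools.

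Replicates of the same number in SH Sham and EE Sham correlated in their deviations from the group means (r of 0.331, 0.137 and 0.111), so that the blocked value is given there. This pairing comes from the data alone, and a pair of different numbers in these 2 groups reached 0.194. In the other comparisons at least 1 same-numbered pair was below 0.1. For EE + SNA against SH SNA, the same-numbered pairs (0.0573, 0.113 and 0.126) lay above every pair of different numbers (at most 0.0403).

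Members, lists and tests were chosen with earlier results of these data known. Named genes are the members, up to 5 called genes per pathway list with the largest change after SNA, Atf3, and genes stated to be named for their value. Results for some genes on the pathway lists are not reported here. The marker lists were of myelinating Schwann cells, satellite glia, sensory neurons, macrophages, neutrophils, adipocytes, endothelium, fibroblasts, skeletal muscle, epidermis and nerve injury response. Alternatives were DESeq2 1.42.0, the likelihood ratio test, limma 3.58.1 on log2 FPKM, other filters and scaling, a replicate block and samples left out. Positions are from GENCODE on GRCm38, shared stretches (95% identity over 100 bases) from BLAST 2.17.0, and promoters from RefSeq.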

Additional observations from a re-analysis of the deposited data

How the results depend on the processing

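Of 276 recounts of called members under alternatives, 251 were within 1.5 times of the number reported. Without the filter on low counts, the adjusted number was 6 for SH SNA against SH Sham, 1 for EE Sham against SH Sham, 5 for EE + SNA against EE Sham and 7 for EE against SH over both surgeries. For this last comparison it was 1 with the likelihood ratio test and 1 with DESeq2. With limma on log2(FPKM + 1) it was 10 for EE + SNA against SH Sham and 1 for EE + SNA against EE Sham, and with log2(FPKM + 0.1) it was 1 for the latter. With 1 sample left out at a time the adjusted numbers ran from 3 to 5 (SH SNA against SH Sham), 10 to 12 (EE + SNA against SH Sham), 1 to 2 (EE + SNA against EE Sham) and 5 to 9 (SNA over both housings). The unadjusted numbers then ran from 3 to 13 (EE Sham against SH Sham), 8 to 18 (EE + SNA against SH SNA) and 0 to 2 (interaction). Leaving out the 3 samples of high marker sums, an alternative chosen after seeing the data, keeps only EE + SNA sample 2 of its group. Its numbers of calls are therefore not listed. The cause of these differences was not tested.

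With the replicate number as a block, the adjusted number for EE Sham against SH Sham was 1 (all genes, 0.179%) and the unadjusted one 11 (all genes, 5.22%). Elsewhere at least 1 same-numbered pair correlated below 0.1, and the samples were treated as sharing only a number. There the block gave 12 calls for SNA over both housings, 0 for EE over both surgeries and 0 for the interaction. EE + SNA had 12 against SH Sham with the block, 0 against SH SNA and 5 against EE Sham, and SH SNA had 4 against its control. No member changed direction past the threshold under any alternative. Log2 differences of 0.1 to 0.3 were called after adjustment for some members with SNA over both housings in edgeR's quasi-likelihood test. With EE over both surgeries no member was called. Of all genes, 22.4% were called with SNA over both housings and 0% with EE over both surgeries. Whether the spread or the 3 samples per group limited the calls over 16238 genes was not tested.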

Other observations

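Of 12 genes of fatty acid oxidation on the list, 1 rose and 2 fell with SNA over both housings after adjustment in edgeR, where 22.4% of all genes were called. Without adjustment 1 was higher and 4 were lower at P below 0.05, where 34.7% of all genes passed, and with EE over both surgeries none was called and none passed the unadjusted threshold. Pdk4, a kinase that turns cells from glucose to fatty acid as fuel, rose by 0.64 ± 0.14 (SE) on the log2 scale at an adjusted P-value of 0.0039. Ppargc1a, a coactivator of mitochondrial genes, fell by 0.22, and Cpt1a, which admits fatty acid to mitochondria, fell by 0.18.

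With SNA over both housings, the other marker lists gave the following counts after adjustment. All 6 nerve injury genes rose. Of satellite glia markers 3 of 9 rose, of fibroblast markers 2 of 6, of endothelial markers 1 of 7, of neutrophil markers 1 of 8, of adipocyte markers 4 of 10, and of the 7 skeletal muscle markers and the 2 epidermal ones tested none was called. At the unadjusted threshold 6 of the skeletal muscle markers and 0 of the epidermal ones were higher. With EE over both surgeries no marker of any list was called after adjustment, and 2 of 8 neutrophil markers, 1 of 7 endothelial, 1 of 6 fibroblast, 1 of 10 macrophage and 5 of 10 adipocyte markers were higher at the unadjusted threshold, while 2 of 12 sensory neuron markers, 1 of 10 macrophage markers and 1 of 6 nerve injury genes were lower.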
